A study of Mus musculus with 6 samples.

Results

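The Krüppel-like factor (Klf) genes were followed in mouse eosinophils exposed to the cytokine IL-33. The set held 10 genes, Klf2, Klf3, Klf4, Klf6, Klf7, Klf9, Klf10, Klf11, Klf13 and Klf16, chosen by gene symbol from the 23420 genes of the deposited table. Wild-type bone marrow cells were first expanded in stem cell factor plus FLT3 ligand, then grown in IL-5 at 20 ng/mL until day 14, when dead cells were removed. Cells of the IL-33 group received IL-33 at 2.5 ng/mL for 3 hours (3 libraries), and cells of the PBS group received the vehicle, phosphate-buffered saline (3 libraries). All 6 libraries were thus from IL-5-matured cells of wild-type genotype. The labels do not say how many mice or cultures they came from, and the spread behind each p-value is that of these 6 libraries, some or all of it possibly technical.

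Klf proteins are transcription factors that bind GC-rich and CACCC sequences through zinc fingers near their carboxyl end. Family members share this DNA-binding part and differ in the rest of the protein, which recruits coactivators or corepressors, so that one member can activate genes that another represses. In blood cells the family is known for roles in quiescence, in differentiation and in setting the strength of inflammatory responses. IL-33 is an alarmin released by damaged tissue, which acts on eosinophils through the receptor ST2 and the adaptor MyD88. The comparison asked which members of the family changed at the transcript level within 3 hours of IL-33.

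The values are normalized counts, read counts divided by 1 factor per library by the authors. Reads recovered from them numbered 9362650 to 10785521 in the IL-33 libraries and 8218303 to 8981930 in the PBS libraries. Reads of Rn45s, the ribosomal RNA precursor, made up 24.3%, 59.6% and 54.8% of IL-33 replicates 1, 2 and 3, against 13.7% to 24.8% in the PBS libraries. Without it, 4229504 to 7129435 reads remained in the IL-33 libraries and 6592044 to 7091546 in the PBS libraries. IL-33 replicate 1 stood apart from the other IL-33 libraries, so results are also given without it and with it alone. Its Rn45s share lay within the PBS range, so in fits without it the share and the group cannot be told apart. Eosinophil markers were abundant, with 11 of 12 listed symbols in the table and a summed level of 19461 to 29228 in IL-33 libraries and 42155 to 54499 in PBS libraries. Prg2, which encodes major basic protein, made up most of that sum. Of the 11 tested, 9 were lower, among them Il5ra (−2.53) and Epx (−2.04), and 1, Gata1, was higher (1.53). Over all genes tested 14.4% were lower and 17.4% higher. Of the 9 lymphoid markers 1, Cd79a, passed the filter on low values. The 9 macrophage and dendritic cell markers in the table summed to 25002 to 31676 after IL-33 and 9214 to 11751 in PBS. Of the 6 tested, 3 were higher, namely Emr1 (the table's name for Adgre1, most of the sum, which eosinophils also express; log2 fold change 1.48), Csf1r (1.40) and Itgax (0.74), and 0 were lower. Cd68 (−0.04), Mrc1 (−0.56) and Ly6c2 (−0.84) were not called, and Marco had 0 reads. Csf1r, the receptor for macrophage colony-stimulating factor, had 4325 ± 528 normalized counts after IL-33 and 1637 ± 153 in PBS (SD, n = 3 each). Neutrophil markers summed to 2266 to 3008 after IL-33 and 2865 to 3543 in PBS, with 0 of 8 tested higher and 3 lower. Mast cell and basophil markers summed to 2913 to 4565 and 1992 to 3855, mostly Hdc (0.81, not called). Of the 7 tested, 0 were higher and 2 lower, Cpa3 (−2.81) and Ms4a2 (−1.81). Erythroid and megakaryocyte markers summed to 2376 to 3008 and 2492 to 3315, with 1 of 3 tested higher and 0 lower. Hbb-b1, Hba-a1 and Mcpt4 were among those at 0. The part of these shifts in the Klf results was not tested, and in bulk RNA fewer cells of a type and less RNA per cell cannot be told apart.

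Of the 10 Klf genes, Klf3, Klf9 and Klf11 rose after IL-33 and 0 fell. Klf3 was higher by 3.19-fold, Klf9 by 1.88-fold and Klf11 by 1.83-fold. The test was limma on log2(normalized count + 1) over all 10544 genes with a normalized count of at least 10 in at least 3 libraries, IL-33 minus PBS, and a gene was called at a Benjamini-Hochberg adjusted p under 0.05. The filter passed 9 members, all but Klf4. Of those 9, 3 were called higher, where 17.4% of all genes tested were higher, and 0 lower, where 14.4% of all genes were lower. At an unadjusted p under 0.05 limma had 4 members higher, with Klf16 added, and 0 lower. The share of all genes at that p was not counted. By edgeR and by DESeq2, 3 members were also called higher and 0 lower. Over all genes edgeR called 18.1% higher and 14% lower, and DESeq2 17.6% and 12.5%. The median log2 fold change of the 9 members was 0.45, against −0.03 over all genes tested. The IL-33 values lay above all PBS values in 5 of the 9 members, namely Klf3, Klf9, Klf11, Klf13 and Klf16, which was the case for 25.5% of all genes. They lay below all PBS values in 0 members, against 24.7% of all genes. The list is short and its members were picked by name, so these counts are a description.

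Among the 10 members, the level was set by Klf6 and Klf13. Per kilobase of exon, Klf6 averaged 1139 ± 370 normalized counts in IL-33 libraries and 961 ± 125 in PBS libraries (SD, n = 3 each). Klf13 followed among the members at 311 ± 17.8 in IL-33 libraries and 278 ± 17.2 in PBS libraries (SD, n = 3 each). Klf5, not one of the 10, had 641 ± 437 in IL-33 libraries and 85.3 ± 19.6 in PBS libraries (SD, n = 3 each). Klf6 made up 44.3% to 67.3% of the summed per-kilobase level of the 10 members after IL-33, and 58.6% to 65.3% in PBS. The sum itself was 1749 to 2250.4 normalized counts per kilobase in IL-33 libraries and 1456 to 1682 in PBS libraries. The groups thus did not overlap as scaled by the authors. Klf6 and Klf13, most of the sum, were not called, and with libraries scaled to equal totals their log2 fold changes were negative (−0.84 and −0.88). The sum was not tested.

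In PBS cells the order of the members by level per kilobase was Klf6, Klf13, Klf2, Klf16, Klf10, Klf9, Klf3, Klf11, Klf7 and Klf4. The first 3 steps of that order and the last were wider than the spread between libraries, whereas neighbours from Klf16 to Klf7 overlapped. After IL-33 Klf6, Klf13 and Klf2 kept the first 3 places, and Klf3 came next at 117 ± 58.2 per kilobase, against 33.4 ± 5.13 in PBS (SD, n = 3 each). Klf2, Klf3, Klf9, Klf10 and Klf16 overlapped their neighbours in the IL-33 order, and Klf11, Klf7 and Klf4 came last in separate steps. Klf3 thus had rank 4 after IL-33 and rank 7 in PBS, but its IL-33 values overlapped those of Klf2 and Klf9.

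**Figure D1:**
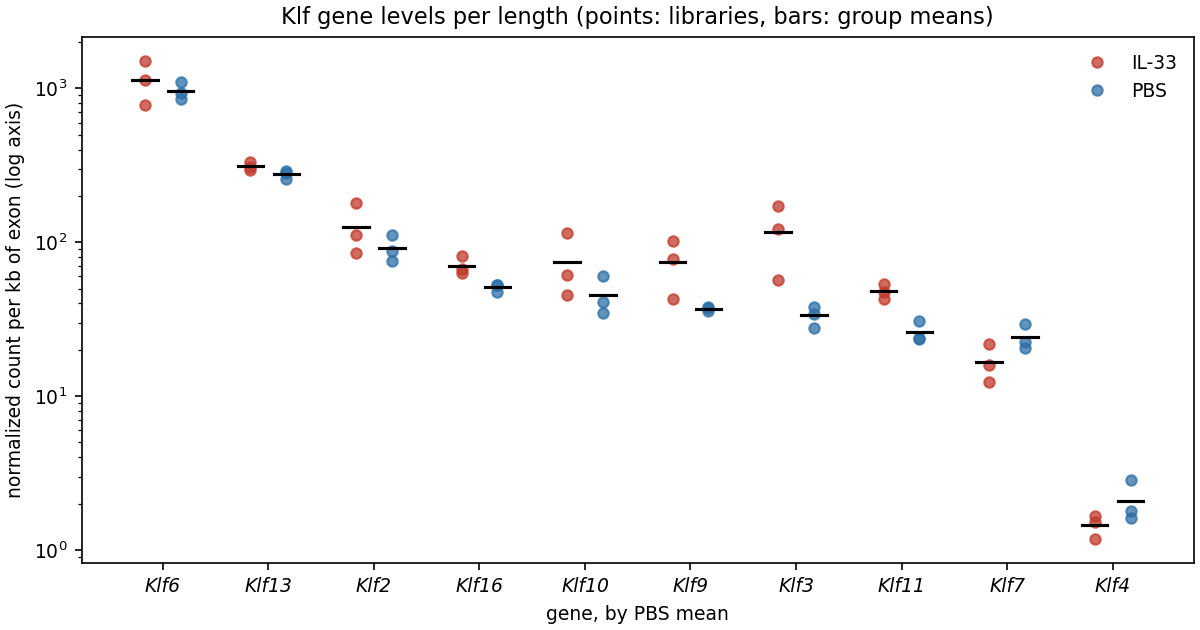
Normalized counts per kilobase of exon (log axis) of the 10 Klf genes, ordered by their PBS mean, with 1 point per library and a bar at each group mean (IL-33 left, PBS right). Klf6 and Klf13 lie above the other members in both groups, and Klf4 is the lowest in both.

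Klf3, also known as basic Krüppel-like factor, is mainly a repressor that recruits the corepressor CtBP. The gene lies on chromosome 5 (64803388 to 64832901, plus strand, mm10). It had normalized counts of 636, 1373 and 1941 in IL-33 replicates 1, 2 and 3, against 428, 386 and 314 in PBS replicates 1, 2 and 3. Each IL-33 library lay above each PBS library, and IL-33 replicate 1 was the lowest of its group. The change on the log2 scale was 1.67 (SE 0.37, adjusted p = 0.013, limma), higher than that of 95.8% of genes tested. Without IL-33 replicate 1 it was 2.13 (adjusted p = 6.19e-06, limma). With that library alone against PBS it was 0.77, in a fit with the spread taken from PBS. With the share of Rn45s reads as a covariate it was 0.67 and was not called (adjusted p = 0.17, limma). The call was lost without IL-33 replicate 2 (adjusted p = 0.0595), PBS replicate 2 (adjusted p = 0.0518) or PBS replicate 3 (adjusted p = 0.0669), in limma fits where the log2 fold change was 1.57, 1.70 and 1.55. Of its exonic bases, 3.59% overlap an exon of a gene on the opposite strand.

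Klf9 is a target of glucocorticoid and thyroid hormone receptors and lies on chromosome 19 (23141226 to 23168134, plus strand, mm10). It had 207, 372 and 491 normalized counts in IL-33 replicates 1, 2 and 3, against 179, 182 and 173 in PBS replicates 1, 2 and 3. The PBS libraries were close together, and IL-33 replicate 1 was just above them. The log2 fold change was 0.91 (SE 0.30, adjusted p = 0.0491, limma), which is close to the threshold. It was 1.26 without IL-33 replicate 1 (adjusted p = 1.14e-04, limma) and 0.22 with that library alone. Klf9 was not called without any one of the other 5 libraries, at log2 fold changes of 0.64 to 0.93 and adjusted p of 0.107 to 0.151 (limma). Before scaling, Klf9 had 230, 242 and 290 reads in IL-33 replicates 1, 2 and 3, against 231, 250 and 247 in PBS replicates 1, 2 and 3, and these overlap. The authors' factors made 1 read worth 0.899, 1.54 and 1.69 normalized counts in IL-33 replicates 1, 2 and 3, against 0.699 to 0.777 in the PBS libraries.

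Klf11 is a repressor known as a TGF-beta-inducible early gene product, which recruits Sin3a. It lies on chromosome 12 (24651274 to 24662789, plus strand, mm10). Its normalized counts were 184, 234 and 207 in IL-33 replicates 1, 2 and 3, against 134, 104 and 103 in PBS replicates 1, 2 and 3. On this scale the groups did not overlap and the IL-33 libraries were close together. Before scaling, Klf11 had 205, 152 and 122 reads in IL-33 replicates 1, 2 and 3. It had 173, 143 and 147 reads in PBS replicates 1, 2 and 3, so the reads overlap, as for Klf9. Klf11 had a fitted change of 0.87 (log2, SE 0.20, adjusted p = 0.0153, limma). Klf11 was called without IL-33 replicate 1 (0.96, adjusted p = 0.00157, limma), and had 0.70 with that library alone. It lost its call without IL-33 replicate 2 (0.79, adjusted p = 0.0634), PBS replicate 2 (0.81, adjusted p = 0.0796) or PBS replicate 3 (0.80, adjusted p = 0.0848), all by limma.

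The DNA before the start of the 3 genes that rose is shown because Klf proteins bind GC-rich boxes of the kind that lie there. Sequences are from RefSeq on GRCm38.p6 (mm10), on the plus strand and 5′ to 3′, and end before the first base annotated as transcribed in GENCODE vM21. Capitals mark CACCC and GGGCGG, read on either strand (GGGTG and CCGCCC).
Klf3, chr5:64803271-64803387: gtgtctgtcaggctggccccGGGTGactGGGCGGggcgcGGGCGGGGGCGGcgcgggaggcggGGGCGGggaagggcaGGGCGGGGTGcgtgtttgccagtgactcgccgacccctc
Klf9, chr19:23140976-23141225: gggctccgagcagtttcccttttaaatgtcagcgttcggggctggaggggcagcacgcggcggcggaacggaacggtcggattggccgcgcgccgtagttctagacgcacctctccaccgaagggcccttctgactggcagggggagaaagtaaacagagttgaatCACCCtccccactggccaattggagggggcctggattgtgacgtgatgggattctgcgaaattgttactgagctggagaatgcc
Klf11, chr12:24651121-24651273: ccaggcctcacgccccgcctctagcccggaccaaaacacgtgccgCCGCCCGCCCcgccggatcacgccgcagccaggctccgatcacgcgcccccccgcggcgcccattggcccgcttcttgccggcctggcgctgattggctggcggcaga

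The printed stretch of Klf3 holds GGGCGG at 5 places and CACCC at 2, that of Klf11 holds GGGCGG at 2 and CACCC at 0, and that of Klf9 holds CACCC at 1 and GGGCGG at 0. RefSeq promoters were found for 8 of the 10 members, all but Klf10 and Klf16. In the 250 bases before the RefSeq start, GGGCGG was present in 7 of 8 members, all but Klf9, and in 32.7% of the 32851 promoter entries of the mouse genome. CACCC was present in 5 of 8 members, namely Klf2, Klf3, Klf7, Klf9 and Klf13, and in 52% of all entries. The member windows had a GC content of 59.2% to 78.4%, where the median of all entries was 52.4%. In 2 of the members, Klf3 and Klf13, 1 CACCC match overlapped a GGGCGG match.

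Motifs of signal-dependent factors were searched in the same windows. The motif TGANTCA is an AP-1 site when its middle base is C or G. Searched with any middle base, it was found in 1 of 8 members, Klf9, and in 6.75% of all entries. The Klf9 match reads TGAATCA, so it is not that site. The CREB core site TGACG was found in 4 of 8 members (Klf2, Klf4, Klf9 and Klf13) and in 17.8% of all entries, and the E-box CACGTG in 3 of 8 (Klf4, Klf6 and Klf11) and in 6.02% of all entries. The NF-kB consensus matched in 0 members and in 5% of all entries, the CArG box of serum response factor in 0 members and in 1.47%, and the MEF2 consensus in Klf2 alone and in 2.92%. A match or its absence describes these letters only.

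Klf2 and Klf4, close relatives that restrain inflammatory activation in endothelium and myeloid cells, were not called. Klf2, on chromosome 8 (72319033 to 72321656, plus strand, mm10), had 156, 206 and 334 normalized counts in IL-33 replicates 1, 2 and 3, against 163, 207 and 140 in PBS replicates 1, 2 and 3. Only IL-33 replicate 3 lay above the PBS range. Its log2 change was 0.40 (SE 0.30, adjusted p = 0.324, limma). It was 0.64 without IL-33 replicate 1 (adjusted p = 0.0358, limma) and −0.10 with that library alone. Without IL-33 replicate 3 it was 0.10 (adjusted p = 0.778, limma). In each fit with 1 library left out the value was positive, at 0.10 to 0.64.

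Klf4, a factor of monocyte differentiation and of pluripotency, lies on chromosome 4 (55527143 to 55532466, minus strand, mm10) and was near the limit of detection. It had 3.60, 4.61 and 5.08 normalized counts in IL-33 replicates 1, 2 and 3, against 5.44, 8.73 and 4.89 in PBS replicates 1, 2 and 3. These rest on 3 to 4 reads per IL-33 library and 7 to 12 per PBS library. Klf4 fell below the filter and was not tested, and no difference was detectable at this depth.

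Klf6 and Klf10, which respond early to serum and growth factor signals, were highest in IL-33 replicate 1. Klf6, on chromosome 13 (5861482 to 5870394, plus strand, mm10), had 6650, 4955 and 3405 normalized counts in IL-33 replicates 1, 2 and 3, against 4825, 3747 and 4093 in PBS replicates 1, 2 and 3. The highest and the lowest of the 6 libraries were both IL-33 libraries. Its log2 fold change was 0.20 (SE 0.25, adjusted p = 0.549, limma). It was −0.03 without IL-33 replicate 1 (adjusted p = 0.89, limma) and 0.66 with that library alone.

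Klf10, the other TGF-beta-inducible early gene of the family, lies on chromosome 15 (38291463 to 38300706, minus strand, mm10). It had 482, 257 and 189.8 normalized counts in IL-33 replicates 1, 2 and 3, against 253, 145 and 169.8 in PBS replicates 1, 2 and 3. IL-33 replicate 3 lay within the PBS range. The fitted log2 value was 0.64 (SE 0.36, adjusted p = 0.197, limma). It was 0.26 without IL-33 replicate 1 (adjusted p = 0.373, limma) and 1.38 with that library alone. In IL-33 replicate 1 Klf10 was thus raised more than Klf11, its closest relative, whereas in replicates 2 and 3 Klf11 was raised more. The difference between these genes was not tested.

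Klf13, which in T cells is known as an activator of the chemokine gene Ccl5, was nearly level. It lies on chromosome 7 (63886351 to 63938915, minus strand, mm10) and had 2318, 2224 and 2488 normalized counts in IL-33 replicates 1, 2 and 3, against 1948, 2122 and 2200.1 in PBS replicates 1, 2 and 3. All IL-33 values lay above the PBS values, by a narrow gap. Its log2 value was 0.17 (SE 0.14, adjusted p = 0.396, limma).

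Klf16, a repressor that acts through Sin3a, lies on chromosome 10 (80567124 to 80577321, minus strand, mm10). It had 169, 178 and 217 normalized counts in IL-33 replicates 1, 2 and 3, against 127, 142 and 142 in PBS replicates 1, 2 and 3. The groups did not overlap, but their log2 difference, 0.45, missed the threshold (SE 0.19, adjusted p = 0.0988, limma). Before scaling, its reads overlapped, at 188, 116 and 128 in IL-33 and 163, 195 and 203 in PBS replicates 1, 2 and 3. Without IL-33 replicate 1 it was called, at 0.52 (adjusted p = 0.0285, limma).

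Klf7 was the one tested member with a negative value. This broadly expressed activator, known for its role in neurons, lies on chromosome 1 (64029447 to 64122282, minus strand, mm10). It had 178, 129 and 99.99 normalized counts in IL-33 replicates 1, 2 and 3, against 167, 183 and 238 in PBS replicates 1, 2 and 3. IL-33 replicate 1 lay within the PBS range and the others below it. The log2 fold change was −0.55 (SE 0.26, adjusted p = 0.133, limma), and −0.76 without IL-33 replicate 1 (adjusted p = 0.00929, limma). Of its exonic bases, 39.4% overlap exons of genes on the opposite strand, and as it is not known whether counting used the strand, its reads may not all be its own.

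**Figure D2:**
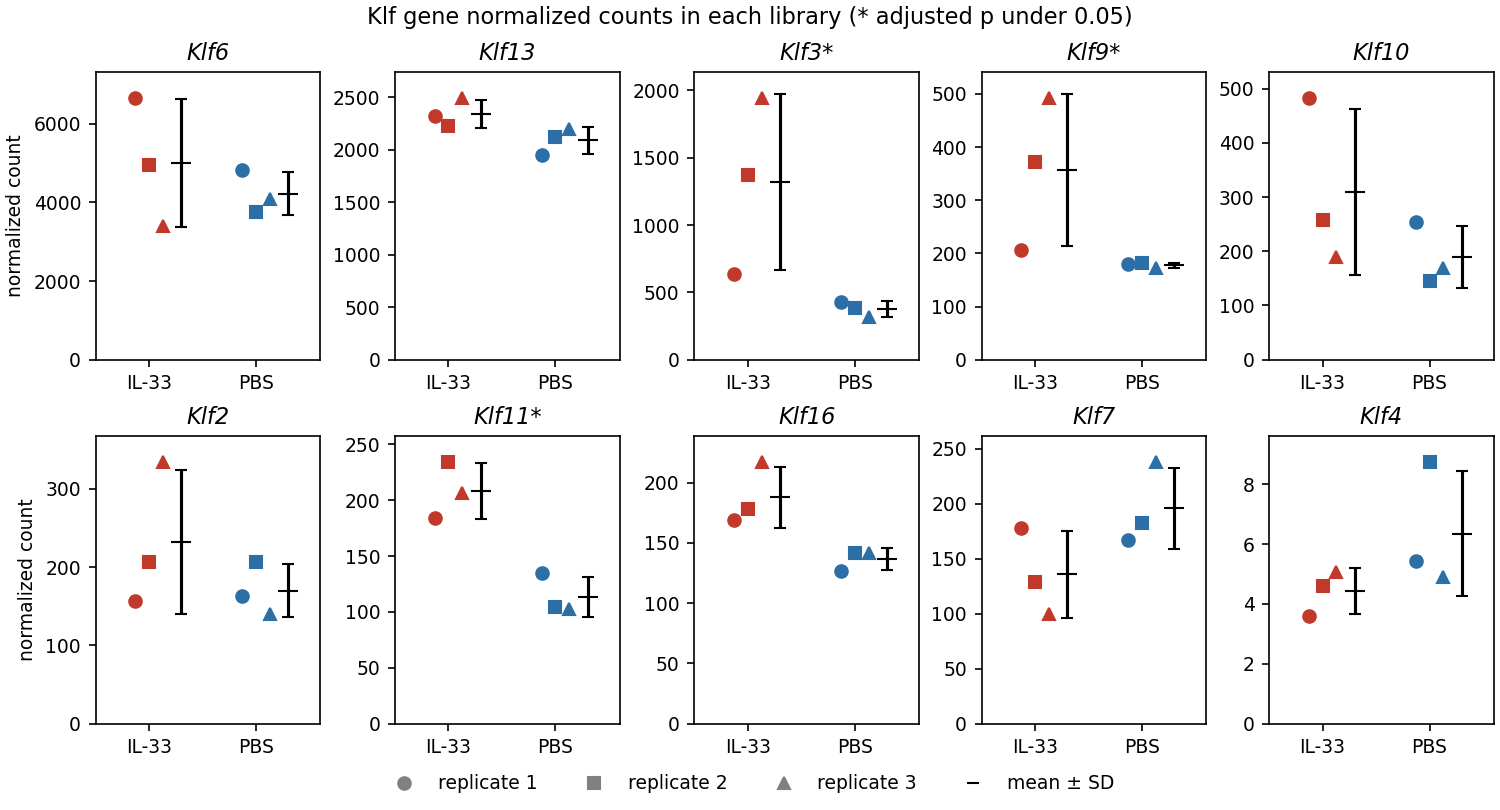
Normalized counts of each Klf gene in each library, with IL-33 left and PBS right in each panel, the replicate number as the point shape, and mean ± SD beside the points (n = 3). Klf3, Klf9 and Klf11, marked with an asterisk, have all IL-33 points above the PBS points, as have Klf13 and Klf16, which were not called. In Klf6 and Klf10 the highest point is IL-33 replicate 1.

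The IL-33 libraries thus differed among themselves in which members were high. Without IL-33 replicate 1, limma called 5 members higher (Klf2, Klf3, Klf9, Klf11 and Klf16), where 28.0% of all genes were higher, and 1 lower (Klf7), where 28.4% of all genes were lower. With IL-33 replicate 1 alone the log2 fold change was 1.38 for Klf10, 0.77 for Klf3, 0.70 for Klf11 and 0.66 for Klf6. It was 0.31 for Klf16, 0.22 for Klf9, 0.15 for Klf13, −0.10 for Klf2 and −0.12 for Klf7. That fit has 1 IL-33 library and so no spread within that group, and both fits use the same PBS libraries. With the Rn45s share added as a covariate to limma, 0 members were called higher or lower, where 7.11% of all genes were higher and 4.88% lower. At an unadjusted p under 0.05, that fit had 3 members higher (Klf3, Klf10 and Klf11) and 0 lower, with the share of all genes not counted. The log2 fold changes in that fit were 1.28 for Klf10, 0.67 for Klf3, 0.61 for Klf11, 0.60 for Klf6 and 0.22 for Klf9. Klf16 had 0.35, Klf13 0.20, Klf7 0.0039 and Klf2 −0.17. Without the covariate Klf10 and Klf6 had smaller values (0.64 and 0.20), and Klf3, Klf11 and Klf9 larger ones (1.67, 0.87 and 0.91). The share and the group were high together in IL-33 replicates 2 and 3, and without IL-33 replicate 1 they cannot be told apart.

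**Figure D3:**
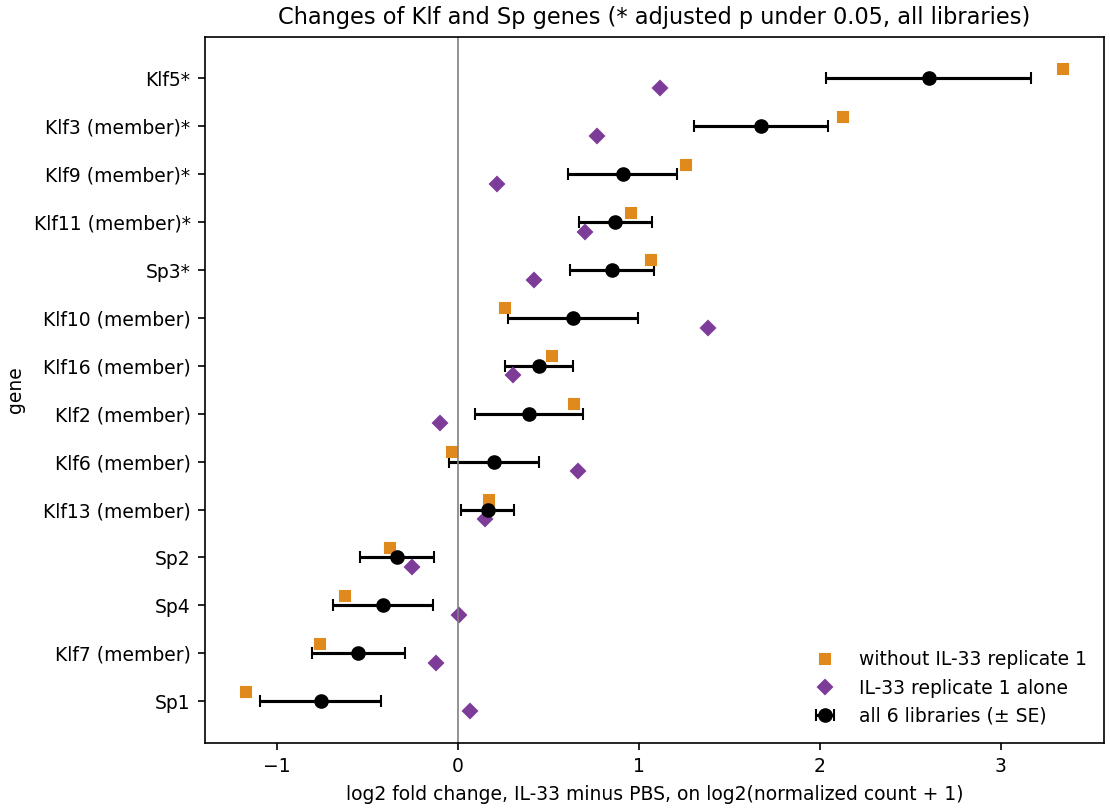
Log2 fold changes (IL-33 minus PBS) of the tested Klf and Sp genes, with all libraries (black, ± SE), without IL-33 replicate 1 (squares) and with IL-33 replicate 1 alone (diamonds). The 3 values of Klf11 and of Klf13 lie close together, those of Klf3, Klf5 and Klf9 are larger without replicate 1, and those of Klf6 and Klf10 are larger with it alone. Klf1 has no value with replicate 1 alone and is not drawn.

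How the libraries were scaled also set the direction of several members. Scaled to equal totals, the median over all genes tested moved to −1.08 (log2), and to −0.46 when Rn45s was left out of the totals. With equal totals 2.38% of all genes were called higher and 50.5% lower, and of the 9 members 0 were higher and 2 lower. Without Rn45s in the totals 8.91% of all genes were higher and 34.0% lower, and of the members 1 was higher and 1 lower. Klf3 had a positive value under each scaling, at 0.63 with equal totals and 1.25 without Rn45s. Klf9 and Klf11 had −0.13 and −0.16 with equal totals, and 0.49 and 0.45 without Rn45s, each above the median of all genes in the same scaling. Klf7 lay below that median in each scaling, at −1.58 with equal totals and −0.97 without Rn45s.

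**Figure D4:**
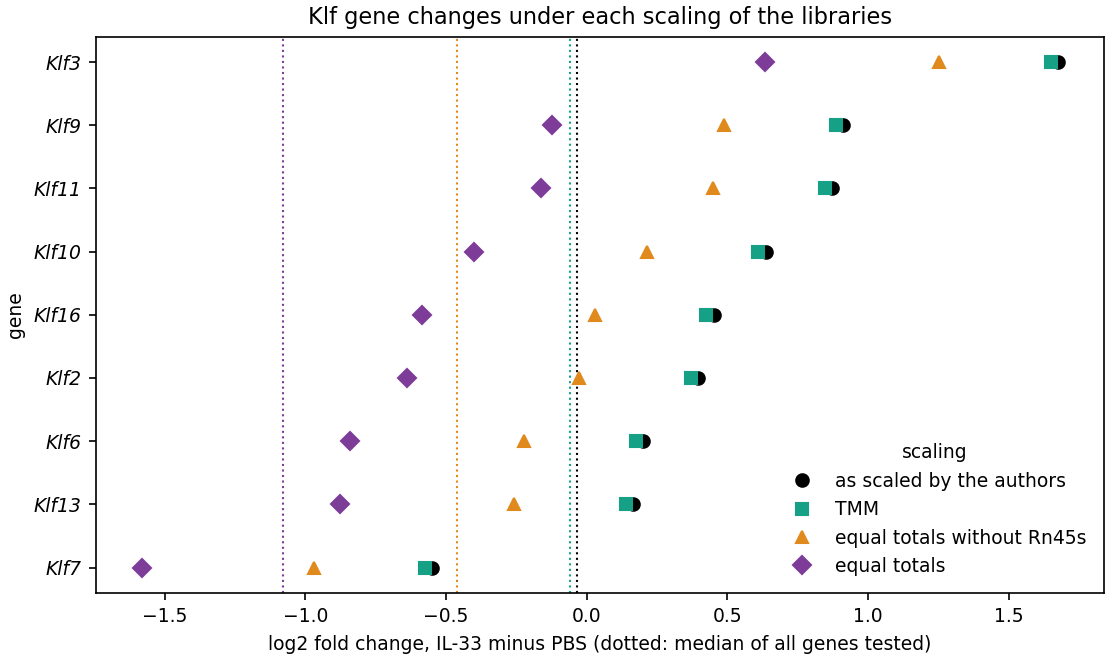
Log2 fold changes (IL-33 minus PBS) of the 9 tested Klf genes under 4 scalings of the libraries, with dotted lines at the median of all genes tested in the same scaling. Klf3 lies to the right of 0 in each scaling, and Klf7 lies to the left of each scaling's median.

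Other genes of the family and the related Sp genes included the largest change of the group. Of 16 listed genes, 6 passed the filter, and 2 of those, Klf5 and Sp3, were higher and 0 lower, with a median log2 fold change of −0.21 (17.4% of all genes were higher and 14.4% lower). The counts were also 2 and 0 by edgeR (18.1% and 14% of all genes) and by DESeq2 (17.6% and 12.5%). They were the same at an unadjusted p under 0.05 in limma, where the share of all genes was not counted. With equal totals 1 was higher and 4 lower (2.38% and 50.5% of all genes). Klf5, an activator that promotes proliferation in epithelium, had 945, 3580 and 5473 normalized counts in IL-33 replicates 1, 2 and 3, against 518, 485 and 328 in PBS replicates 1, 2 and 3. All IL-33 libraries were above all PBS libraries, with replicate 1 the lowest of them, as for Klf3. Klf5 differed by 2.60 on the log2 scale (SE 0.57, adjusted p = 0.0122, limma), and remained called with equal totals (1.56, adjusted p = 0.0146, limma). Sp3, a ubiquitous GC-box factor, differed by 0.85 (SE 0.23, adjusted p = 0.0263, limma), and by −0.19 with equal totals. With the Rn45s share as a covariate 0 of the 6 genes were called higher or lower, so Klf5 and Sp3 both lost their calls. In that fit 7.11% of all genes were higher and 4.88% lower. With 1 library left out, Klf5 ranged from 2.08 to 3.34 and lost its call for IL-33 replicate 2 and for PBS replicate 3. Sp3 ranged from 0.63 to 1.07 and lost its call for IL-33 replicate 2 and for each PBS replicate.

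Sp1, Sp2, Sp4 and Klf1 were not called. Sp1, the best known GC-box activator, had 1156, 544 and 442 normalized counts in IL-33 replicates 1, 2 and 3, against 1079, 992 and 1261 in PBS replicates 1, 2 and 3 (log2 fold change −0.76, SE 0.33, adjusted p = 0.111, limma). It was lower without IL-33 replicate 1 (−1.17, adjusted p = 1.07e-04, limma), and had 0.07 with that library alone. Sp2 (−0.33), Sp4 (−0.41) and the erythroid factor gene Klf1 (−0.09) are given as log2 fold changes. Klf8, Klf12, Klf14, Klf17, Sp6, Sp7 and Sp9 had reads but lay below the filter. Klf15, Sp5 and Sp8 had 0 reads in all 6 libraries, which allows up to 3 reads in each.

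Klf proteins act with corepressors and coactivators. Among 15 such genes, all tested, limma called 3 higher and 3 lower (median log2 fold change −0.11), counts close to the 17.4% and 14.4% of all genes. Rbbp7 (1.43, SE 0.31) and Sap30 (1.39, SE 0.42), which encode parts of the Sin3 complex, and Crebbp (0.53, SE 0.17), which encodes a histone acetyltransferase, were higher. Among the lower genes were Ncor1 (−0.80, SE 0.16), which encodes a corepressor of nuclear receptors, and the acetyltransferase gene Kat2b (−0.88, SE 0.17). The CtBP genes that partner Klf3 were not called, at −0.11 for Ctbp1 and 0.07 for Ctbp2, and Sin3a missed the threshold (−0.52, adjusted p = 0.0549, limma). Those 3 genes are named for their link to Klf3, Klf11 and Klf16, after their values were seen. Over the fits with 1 library left out, Ncor1 and Kat2b were called in all but those without PBS replicate 2 or 3, and Rbbp7 in all but that without PBS replicate 3. Sap30 (1.08 to 1.67) and Crebbp (0.38 to 0.61) were called only in the fit without IL-33 replicate 1. With equal totals 0 of the genes were higher and 10 lower, where 2.38% and 50.5% of all genes were.

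Of 7 genes of ubiquitin ligases that act on Klf proteins, 2 were higher, 1 lower and 4 not called (median 0.28), where 17.4% of all genes were higher and 14.4% lower. Fbxw7, whose product targets Klf2 and Klf5, had 971 ± 40.3 normalized counts after IL-33 and 539 ± 25.2 in PBS (SD, n = 3 each), a log2 difference of 0.85 (SE 0.15, adjusted p = 0.00562, limma). Vhl was higher as well (0.87, SE 0.20). Fbxo32 was lower, at 13.3 ± 1.86 after IL-33 and 47.1 ± 7.14 in PBS (−1.75, SE 0.28, adjusted p = 0.00394, limma, SD over n = 3 each). Fbxw7 and Fbxo32 were called in each fit with 1 library left out, and Vhl (0.75 to 1.01) lost its call when IL-33 replicate 2 was left out, and likewise for PBS replicates 2 and 3. With equal totals 0 were higher and 3 lower (2.38% and 50.5% of all genes), with Fbxw7 at −0.19.

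The ERK5 and MEF2 pathway switches on Klf2 and Klf4 in endothelium. Of 9 listed genes, 8 were tested, and 3 were higher, 1 lower and 4 not called (median −0.10), against 17.4% and 14.4% of all genes. Without the mean-variance trend in limma, 1 was higher and 0 lower (15.1% and 13.4% of all genes). The histone deacetylase gene Hdac7 (1.07, SE 0.21), Mef2d (0.64, SE 0.19) and Mapk7, which encodes ERK5 (0.62, SE 0.20), were higher. Map3k3, an upstream kinase gene, was lower (−0.46, SE 0.15). Hdac7 lost its call without PBS replicate 3. Mef2d (0.52 to 0.79) and Mapk7 (0.50 to 0.77) were called only without IL-33 replicate 1 among the fits with 1 library left out, and Map3k3 (−0.51 to −0.42) only without IL-33 replicate 1 or 3. With equal totals 0 were higher and 5 lower (2.38% and 50.5% of all genes).

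Genes that respond to glucocorticoids, as Klf9 does, went both ways. Of 8 tested, 4 were higher, 2 lower and 2 not called (median 0.09), beside 17.4% higher and 14.4% lower over all genes. Ddit4, an inhibitor of mTOR signalling, had 4260 ± 1488 normalized counts after IL-33 and 1091 ± 131 in PBS (SD, n = 3 each), a log2 difference of 1.91 (SE 0.26, adjusted p = 0.00195, limma). The clock gene Per1 (1.07, SE 0.21) and the phosphatase gene Dusp1 (0.88, SE 0.24) also rose. Zbtb16 had 394 ± 65.4 after IL-33 and 1086 ± 102 in PBS (−1.47, SE 0.18, adjusted p = 0.00132, limma, SD over n = 3 each), and Tsc22d3, which encodes GILZ, was lower too (−1.02, SE 0.21). Ddit4 and Zbtb16 were called in each fit with 1 library left out and with equal totals (0.87 and −2.51). Per1 lost its call without PBS replicate 3, Tsc22d3 without PBS replicate 2 or 3, and Dusp1 (0.67 to 1.04) when replicate 2 or 3 of either group was left out. With equal totals 1 was higher and 4 lower (2.38% and 50.5% of all genes).

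TGF-beta signalling induces Klf10 and Klf11. Of its 10 listed genes, which all passed the filter, limma called 6 higher and 0 lower (median log2 fold change 0.75), as did edgeR, DESeq2 and limma at an unadjusted p under 0.05. Over all genes 17.4% were higher and 14.4% lower by limma, 18.1% and 14% by edgeR, and 17.6% and 12.5% by DESeq2. The share of all genes at an unadjusted p was not counted. The SMAD corepressor gene Skil (1.55, SE 0.32), the inhibitory Smad7 (1.48, SE 0.28) and the ligand gene Tgfb1 (1.26, SE 0.21) had the largest values. Skil had 1116, 655 and 441 normalized counts in IL-33 replicates 1, 2 and 3, against 246, 199 and 259 in PBS replicates 1, 2 and 3, with replicate 1 the highest, as for Klf10. Smad7 had 497, 863 and 1017 in IL-33 replicates 1, 2 and 3, against 309.9, 278 and 232 in PBS replicates 1, 2 and 3, with replicate 1 the lowest, as for Klf3. Tgfb1 and Smad7 were called in each fit with 1 library left out, and Skil in all but that without PBS replicate 2. Higher genes of the list numbered 2 to 7 and lower ones 0 to 1 in those fits, where 6.74% to 28.0% of all genes were higher and 3.08% to 28.4% lower. The fewest higher, 2, were without PBS replicate 2, where 7.6% of all genes were higher. With equal totals limma called 0 higher and 1 lower (2.38% and 50.5% of all genes; median −0.29, against −1.08 over all genes). Without Rn45s in the totals it called 3 higher and 0 lower (8.91% and 34.0% of all genes). With the Rn45s covariate it called 3 higher and 0 lower, with a median of 0.50 (7.11% and 4.88% of all genes). After quantile normalization it called 4 higher and 0 lower, with a median of 0.41 (15.5% and 16.5% of all genes).

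Klf2 is known to activate trafficking genes in T cells and thrombomodulin in endothelium. Of 8 such genes, 5 were tested, with 1 higher, 2 lower and 2 not called (median −0.12), where all genes had 17.4% higher and 14.4% lower. S1pr1, the receptor for sphingosine 1-phosphate that guides lymphocyte exit, was lower, with a log2 difference of −2.02 (SE 0.51, adjusted p = 0.0204, limma). Cdkn1a, the gene of the cell cycle inhibitor p21, was higher (2.36, SE 0.21, adjusted p = 3.45e-04, limma). It was called in each fit with 1 library left out, and S1pr1 (−2.34 to −1.41) in 0 of the 3 that left out a PBS library. With equal totals 1 gene was higher and 3 lower (2.38% and 50.5% of all genes).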

How the data were processed

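Per the labels' protocols, ribosomal RNA was removed from total RNA before a strand-keeping library kit was used. The submitters' processing notes name HISAT2, HTSeq, DESeq2 and build mm10. Versions, annotation and strand setting of the counting were not stated. The deposited values are a signal, gene counts that the authors divided by 1 factor per library. All values (100%) were whole multiples of a library's smallest value within 0.1 of a read, which gave the recovered reads. The test was limma 3.58.1 under R 4.3.3 (eBayes with a mean-variance trend, two-sided) on log2(value + 1), IL-33 minus PBS. Fold changes are on that scale, which understates changes of low genes. Lengths and spans come from GENCODE vM21, matched by symbol for 22996 of 23420 genes.

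The members and gene lists were chosen with earlier results of these data known. Every member was named, every tested gene of the other Klf and Sp list, and up to 3 called genes per direction of other lists, some of which are not reported here. Alternatives were other scalings, pseudocounts (0.5 and 5), filters (none and 50), no trend, edgeR 4.0.16, DESeq2 1.42.0, a replicate block and each library left out. A Rn45s covariate and removal of GC and length trends (splines, 5 degrees of freedom each) were added after seeing the data. The fit was tested on simulated data. Every pair of libraries differed by more than sampling noise (chi-square per degree of freedom of 7.38 or more). As reads carried no molecular identifiers, limits from counts cover counting error only.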

Additional observations from a re-analysis of the deposited data

How the results depend on the processing

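With all libraries, 3 Klf members were called higher and 0 lower. Klf3, Klf9 and Klf11 were called with TMM scaling, either other pseudocount, the filter at 50, edgeR or DESeq2 on recovered reads, and the replicate block. The count of higher members was 0 with equal totals, 1 with equal totals without Rn45s and 0 with the Rn45s covariate, and 0 to 5 with a library left out (over all genes 2.38%, 8.91%, 7.11% and 6.74% to 28.0%). Removal of GC and length trends called 4 higher, adding Klf6 (0.48, adjusted p = 0.0445, limma), where 18.5% of all genes were higher. Lower members numbered 2 with equal totals, 1 with equal totals without Rn45s, and 0 to 1 with a library left out (over all genes 50.5%, 34.0% and 3.08% to 28.4%). The 2 lower with equal totals were Klf7 and Klf13. Klf9 lost its call in 12 of 21 alternatives, among them no filter, no trend and quantile normalization, Klf11 in 6 and Klf3 in 5. In the 3 fits with a library left out that called 0 members, 2 to 3 were higher and 0 lower at an unadjusted p under 0.05 (limma). The share of all genes at that p was not counted. The median log2 fold change over all genes was −1.08 with equal totals and −0.461 with equal totals without Rn45s. It was −0.0605 with quantile normalization. The cause of the moves was not tested.

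Log2 fold changes turned sign as follows. With equal totals, Klf2 had −0.64, Klf6 −0.84, Klf9 −0.13, Klf10 −0.40, Klf11 −0.16, Klf13 −0.88 and Klf16 −0.58. With equal totals without Rn45s, Klf2 had −0.027, Klf6 −0.22 and Klf13 −0.26. Quantile normalization gave −0.39 for Klf6 and −0.33 for Klf13. Removal of GC and length trends gave −0.18 for Klf2, −0.0315 for Klf13 and −0.0771 for Klf16. The Rn45s covariate gave −0.17 for Klf2 and 0.0039 for Klf7, and IL-33 replicate 1 alone gave −0.10 for Klf2. Klf6 ranged from −0.0316 to 0.45 with a library left out. Except for Klf13 with equal totals, none of these turned values was called.

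Titles give both groups replicate numbers 1 to 3, but no label says that a number marks a shared culture, so they were not taken as pairs. Same-numbered libraries deviated together at r of 0.046, 0.24 and −0.16 across genes. Deviations from the mean of 3 libraries are tied to each other, so these values do not decide whether libraries were paired. With the replicate block the same 3 members were called higher and 0 lower (15.4% and 12.3% of all genes). The block left 1 higher and 0 lower in the ERK5 and MEF2 list, and 1 higher and 3 lower among corepressors and coactivators, and changed the counts of no other list described in the report apart from cell type markers, for which it was not run. Depth limits Klf4, with 3 to 12 reads per library.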
